A study of Mus musculus with 9 samples.

Results

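Neurotransmitter and somatostatin receptors were examined in poly-A RNA libraries of αTC1 cells, a glucagon-producing line derived from mouse pancreatic alpha cells. Cells had 7 days with 4 µM EPZ011989 (4 libraries) or with the solvent DMSO (5 libraries), and all were grown in low-glucose medium with serum. EPZ011989 blocks EZH2, the catalytic subunit of the Polycomb complex that places a repressive methyl mark on histone H3. All libraries come from a single line and are labelled as biological replicates. Separate cultures are not mentioned, so a p-value here reflects only how far these libraries scatter. Receptor rows were taken by gene symbol (adrenergic, muscarinic, nicotinic, dopamine, serotonin, somatostatin, glutamate, GABA, glycine and purine receptor prefixes), and those with at least 100 counts summed over the 9 libraries were kept. By name, 125 of the 33212 genes matched, and 40 of these reached the minimum. The name rule also took 5 genes that encode no receptor: the serine protease genes Htra2 and Htra4, the G protein-coupled receptor kinase genes Adrbk1 and Adrbk2, and Grina, an NMDA receptor-associated protein. The remaining 35 genes encode receptors or receptor subunits.

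Islet alpha cells are electrically excitable, and transmitters and neighbouring islet hormones act on them through receptors of these families. Glutamate-gated channels of the AMPA and kainate types depolarize cells, GABA-A receptors are chloride channels opened by GABA, and somatostatin from delta cells restrains glucagon release through receptors coupled to inhibitory G proteins. Most ligand-gated channels are assembled from several different subunits, so that the set of subunits expressed decides which channels can form.

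Of the 35 receptor genes, 11 were higher and 2 lower with EPZ011989 (edgeR quasi-likelihood test, adjusted p below 0.05). Among all 14754 genes tested, 16.2% were higher and 7.96% lower (2388 and 1174 genes, or 2735 and 776 with upper-quartile factors). Among those higher with EPZ011989 were the GABA-A subunit gene Gabrd, the GABA-B receptor gene Gabbr1, the glycine receptor gene Glra2, the purine receptor genes P2ry2 and P2ry6, the muscarinic receptor gene Chrm1, the nicotinic subunit gene Chrnb1, the serotonin-gated channel gene Htr3a, the kainate subunit gene Grik4 and the NMDA subunit gene Grin3b. Lower were Grin1, the subunit required in every NMDA receptor, and the AMPA subunit gene Gria3. Of the 18 receptor genes whose mean over all libraries reached 1 CPM (a count relative to its TMM-scaled library size), 3 rose and 2 fell, where 15.2% and 9.62% of all tested genes of that level did. Of the 17 below 1 CPM, 8 rose and 0 fell, where 20.8% and 0.554% of all tested genes of that level did. A gene low in DMSO could reach the minimum of 100 counts only through the EPZ011989 libraries, as for Chrm1, Gabrd, Glra2, P2ry2 and P2ry6. The second count is therefore no result about receptors, and the adjusted p-values of these genes are no separate support for a rise. Every EPZ011989 library exceeded every DMSO library for 11 of the 35 genes, where 16.1% of all tested genes did so, and every one was below for 1, where 8.77% were. Among genes of at least 1 CPM these were 4 and 1 of 18 (14.3% and 10.5% of all such genes), and under 1 CPM 7 and 0 of 17 (23.9% and 1.14%). The median log2 fold change of the 35 receptor genes was 0.50, and that of the 18 more abundant ones 0.05, against 0.03 for all tested genes.

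**Figure D1:**
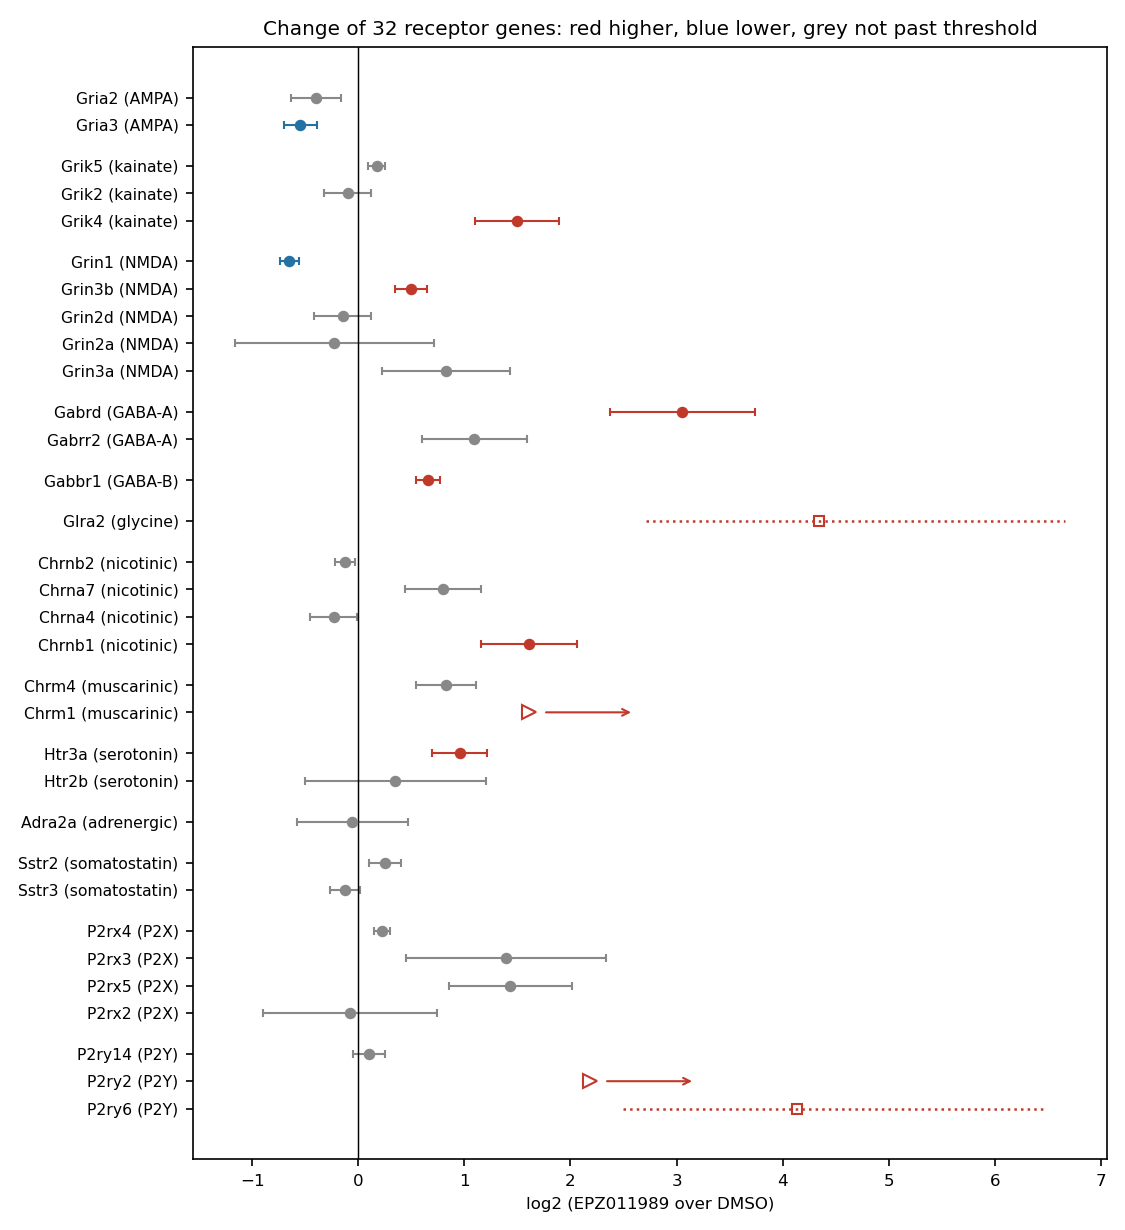
The log2 ratio of EPZ011989 over DMSO (x axis) is drawn for 32 of the receptor genes, grouped by family and ordered by abundance within a family. Circles with bars are edgeR log2 fold changes with their standard errors, open triangles with arrows are lower bounds for genes at 0 in every DMSO library (Chrm1, P2ry2), and open squares with dotted lines are ratios with 95% counting intervals for genes with counts in only 1 DMSO library (Glra2, P2ry6). The 10 genes past the threshold on the right include 7 with a mean under 1 CPM.

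Libraries held 60274140 to 74651782 deposited counts. Glucagon marked the cells in both groups, with Gcg at 18633 ± 2338 CPM (SD, n = 4) with EPZ011989 and 19280 ± 804 CPM (SD, n = 5) in DMSO. Values after ± are likewise SDs over these 4 and 5 libraries unless marked SE. EPZ011989 replicates 2 and 4 stood apart from the other libraries of their group. Among the 12044 tested genes that averaged 1 CPM or more, replicate 2 was the highest EPZ011989 library for 39.2% and the lowest for 42.7%, and replicate 4 the highest for 37.3% and the lowest for 36.2%. Genes highest in replicate 2 had longer merged exons (median 6393 bases) than genes lowest in it (3306 bases). In replicate 4 the order was opposite, with a median of 3062.5 bases for genes highest and 6568 bases for genes lowest in it. Of the 18 receptor genes at that level, replicate 2 was the highest for 8 and replicate 4 the lowest for 7. Marker lists were counted beside all tested genes, of which 16.2% were higher and 7.96% lower (20.8% and 0.554% under 1 CPM). No marker list was tested against other genes. Of 10 alpha cell markers 2 were higher and 0 lower, with the list at 21398 to 29017 CPM with EPZ011989 and 25379 to 27867 CPM in DMSO. Neuron markers were higher for 4 and lower for 2 of 13 tested, with a summed level of 2421 to 2687 CPM with EPZ011989 and 2830 to 3012 CPM in DMSO. Of 6 tested fibroblast markers 5 were higher, with the list at 32.8 to 43.8 CPM with EPZ011989 and 7.31 to 10.2 CPM in DMSO, and of 4 tested glia markers 2 were higher (30.3 to 34.2 CPM with EPZ011989 and 20.2 to 24.0 CPM in DMSO). Endothelial markers were higher for 2 of 3 tested, with the list at 2.06 to 3.49 CPM with EPZ011989 and 0.415 to 1.30 CPM in DMSO, leukocyte markers for 1 of 4 (6.52 to 8.25 CPM with EPZ011989 and 2.21 to 3.42 CPM in DMSO), and beta and delta cell markers for 4 of 5 (971 to 1617 CPM with EPZ011989 and 1358 to 1807 CPM in DMSO). Of the 10 genes on the beta and delta cell list, Ins1, Pdx1 and Ucn3 were at 0 in all 9 libraries. Sst, the delta cell hormone gene on the same list, was counted in EPZ011989 libraries only. The part of other cells in the receptor results was not tested, and in these bulk samples more cells with a transcript and more RNA per cell cannot be told apart.

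The upstream sequences of 4 genes are given as examples of different CpG content among genes of different behaviour: a gene at 0 in DMSO (P2ry2), a low gene that rose (Glra2), a more abundant gene that rose (Gabbr1) and the abundant gene that fell with no overlap between groups (Grin1). Each is the 250 bases before the RefSeq start on GRCm38.p6, read 5′ to 3′ on the gene's strand, with CpG dinucleotides in capitals. In mammalian cells EZH2 is found mainly at promoters rich in CpG. The P2ry2 stretch lies in an intron of the longer gene that GENCODE draws.
P2ry2 (chr7:101012054-101012303, minus strand): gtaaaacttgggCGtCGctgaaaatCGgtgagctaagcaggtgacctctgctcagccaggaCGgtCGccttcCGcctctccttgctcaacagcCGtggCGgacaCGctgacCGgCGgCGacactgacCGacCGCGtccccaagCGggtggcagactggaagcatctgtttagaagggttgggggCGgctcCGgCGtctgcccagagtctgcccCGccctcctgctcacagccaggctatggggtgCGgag
Glra2 (chrX:165327394-165327643, minus strand): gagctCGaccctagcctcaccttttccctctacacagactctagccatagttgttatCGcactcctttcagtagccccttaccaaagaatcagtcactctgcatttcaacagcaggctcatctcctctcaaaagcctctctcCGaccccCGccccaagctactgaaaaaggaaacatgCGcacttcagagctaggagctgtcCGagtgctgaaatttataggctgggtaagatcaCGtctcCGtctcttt
Gabbr1 (chr17:37045716-37045965, plus strand): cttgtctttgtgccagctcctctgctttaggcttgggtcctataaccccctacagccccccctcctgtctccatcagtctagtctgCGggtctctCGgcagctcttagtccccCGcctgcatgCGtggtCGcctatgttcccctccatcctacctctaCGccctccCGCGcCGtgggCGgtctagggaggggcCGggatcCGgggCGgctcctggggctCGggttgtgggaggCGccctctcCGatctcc
Grin1 (chr2:25319188-25319437, minus strand): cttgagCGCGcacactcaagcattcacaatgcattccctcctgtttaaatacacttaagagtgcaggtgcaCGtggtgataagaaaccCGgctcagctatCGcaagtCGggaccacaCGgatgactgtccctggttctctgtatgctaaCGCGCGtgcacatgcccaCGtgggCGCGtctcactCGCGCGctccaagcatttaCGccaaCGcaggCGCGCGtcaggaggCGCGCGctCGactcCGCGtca
The P2ry2 stretch held 21 CpG dinucleotides, the Glra2 stretch 8, the Gabbr1 stretch 16 and the Grin1 stretch 27. At least as many were found in 16.1%, 43.4%, 25.5% and 8.18% of the 27025 promoters of the table, in that order. RefSeq promoters were matched by symbol for 22 of the 35 receptor genes, with the most upstream start used for each gene. Their median was 15 CpG dinucleotides, against 6 for all promoters. The matched genes were kept for at least 100 counts, and the 27025 promoters were not filtered by expression. The medians, and the TATAAA shares below, therefore compare unlike sets. The 6 matched genes that rose had a median of 15 (from 2 in Grin3b to 36 in Grik4), and the 15 that did not pass had a median of 13 (from 1 in Gabrr2 to 26 in Chrm4). The letters TATAAA, searched on both strands, stood in 3 of these 6 genes (Chrnb1, Glra2, Grin3b), in 1 of the 15 (Adra2a) and in 12.98% of all promoters.

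**Figure D2:**
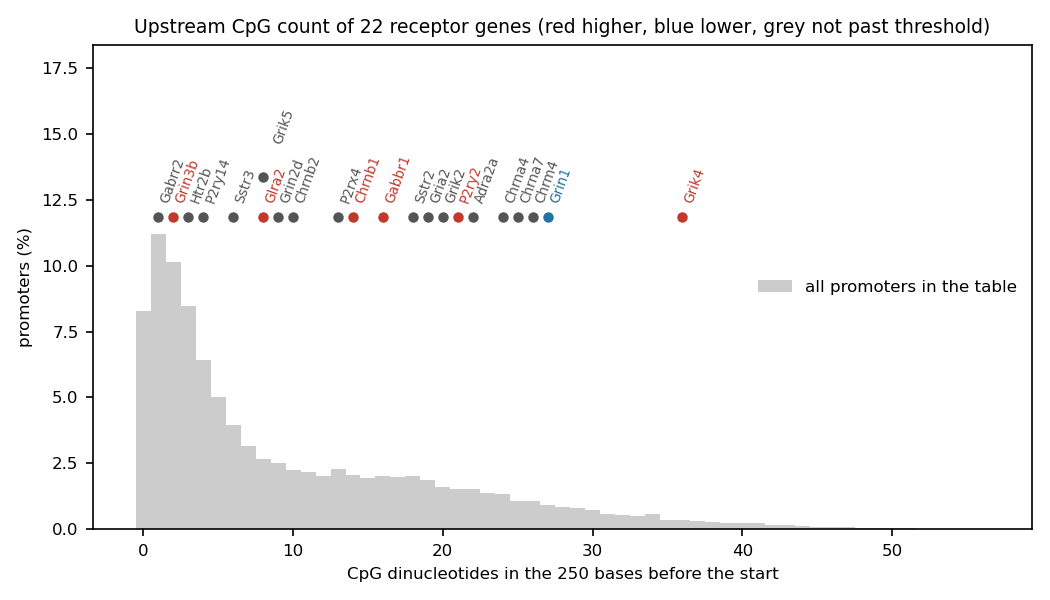
Grey bars give the share of all 27025 promoters (y axis, percent) with each number of CpG dinucleotides in the 250 bases before the start (x axis), and dots place the 22 matched receptor genes on the same x axis, red for higher, blue for lower and dark grey for not past the threshold. Genes that rose lie between 2 (Grin3b) and 36 (Grik4), and the fallen Grin1 lies at 27.

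Levels of different genes were compared as CPM per kilobase of merged GENCODE exons. Of the genes described here, 10 reached 1 CPM per kilobase in DMSO cells. The kainate subunit gene Grik5 was the most abundant, at 23.5 ± 2.3 CPM per kilobase with EPZ011989 and 20.9 ± 1.2 in DMSO. Grin1 was at 8.78 ± 1.04 with EPZ011989 and 13.8 ± 1.0 in DMSO. In DMSO, the next 3 genes differed by less than their spread, Gria2 (5.85 ± 0.74), P2rx4 (5.63 ± 0.28) and Chrnb2 (5.55 ± 0.23). With EPZ011989 these 3 were at 4.45 ± 2.02, 6.58 ± 0.58 and 5.10 ± 0.71 CPM per kilobase. Gria3, Sstr2, Grik2, Chrm4 and Gabbr1 followed in DMSO, at 4.35, 2.20, 1.47, 1.37 and 1.19 CPM per kilobase. In the EPZ011989 libraries they were at 2.98, 2.63, 1.37, 2.43 and 1.89. Merged exons hold every annotated isoform, so genes with long untranslated regions that are little used come out too low on this scale.

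AMPA receptors carry most fast glutamate signalling. Gria2 encodes the subunit that keeps the channel closed to calcium. Its level was 64.7, 115, 52.9 and 44.3 CPM in EPZ011989 replicates 1 to 4, and 107, 81.0, 99.7, 84.8 and 83.0 CPM in DMSO replicates 1 to 5. Replicates 1, 3 and 4 lay below every DMSO library and replicate 2 above every one. The difference did not pass (log2 fold change -0.40 ± 0.24 SE, adjusted p = 0.270). Without EPZ011989 replicate 2 it passed at -0.76 (adjusted p = 0.00117). Gria3, a further AMPA subunit gene, was at 31.1, 39.2, 26.7 and 20.6 CPM with EPZ011989 and at 44.4, 39.1, 47.1, 43.0 and 40.8 CPM in DMSO. Here replicate 2 overlapped the DMSO libraries and the other 3 lay below them. Gria3 fell to 0.685 times its DMSO level (log2 fold change -0.55 ± 0.16 SE, adjusted p = 0.0256). The call was lost without EPZ011989 replicate 3 (adjusted p = 0.0782) and with library size alone as the scaling (0.0543). With replicate number as a block it was lost as well (0.0568). Gria1 and Gria4 had under 100 counts in all.

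Among kainate receptor genes, Grik5 and Grik2 encode the high-affinity auxiliary subunit and a core subunit of the channel. Grik5 was at 122, 109, 118 and 138 CPM with EPZ011989 and at 104, 104, 104, 109 and 119 CPM in DMSO. The groups overlapped, and the difference did not pass (log2 fold change 0.17 ± 0.08 SE, adjusted p = 0.140), though it did without EPZ011989 replicate 2 (0.0267) and with library size alone (0.0377). Grik2 averaged 18.2 ± 7.0 CPM with EPZ011989 and 19.4 ± 3.5 CPM in DMSO (adjusted p = 0.808). Grik4, a second high-affinity subunit gene, was far lower than Grik5. Its level was 1.58, 1.31, 1.33 and 1.67 CPM with EPZ011989 and 0.284, 0.678, 0.969, 0.236 and 0.429 CPM in DMSO. Every EPZ011989 library lay above every DMSO library, and Grik4 rose 2.84-fold (log2 fold change 1.497 ± 0.40 SE, adjusted p = 0.0184), a call that was lost without EPZ011989 replicate 1 (0.0535).

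NMDA receptors are glutamate-gated calcium channels built from an obligatory subunit, encoded by Grin1, and partners encoded by the other Grin genes. Grin1 (chromosome 2, 25291181 to 25319187, GRCm38) was at 95.7, 73.8, 80.0 and 91.3 CPM in the EPZ011989 libraries and at 128, 125, 129, 140 and 147 CPM in the DMSO libraries. No library of one group reached the other. Grin1 fell to 0.637 times its DMSO level (log2 fold change -0.65 ± 0.09 SE, adjusted p = 0.000387), and the call held in all 19 alternative settings. Its exons overlap those of Grin1os on the other strand, and the sources used here do not say whether the counting used strand. The partner genes were much lower. Grin3b, which encodes a glycine-binding subunit, was at 3.87, 4.32, 4.22 and 4.56 CPM with EPZ011989 and at 3.30, 2.31, 2.62, 3.17 and 3.60 CPM in DMSO. It rose 1.41-fold with no overlap (log2 fold change 0.50 ± 0.15 SE, adjusted p = 0.0359). That call was lost in 7 of 9 fits with 1 library left out, without EPZ011989 replicate 1 (0.0645), 3 (0.0766) or 4 (0.0863) or DMSO replicate 1 (0.0532), 2 (0.0742), 3 (0.0927) or 4 (0.0635). With no filter on low counts the call was lost too (0.0504). Exons of Grin3b overlap those of Tmem259 on the other strand, which was at 173 ± 19 CPM with EPZ011989 and 188 ± 14 CPM in DMSO. Grin2d and Grin2a encode glutamate-binding partners and did not pass. Grin2d was at 1.14 ± 0.23 CPM with EPZ011989 and 1.26 ± 0.36 CPM in DMSO, and Grin2a at 0.221 ± 0.254 CPM with EPZ011989 and 0.257 ± 0.184 CPM in DMSO. Grin3a, at 0.298 ± 0.245 CPM with EPZ011989 and 0.167 ± 0.077 CPM in DMSO, did not pass either.

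**Figure D3:**
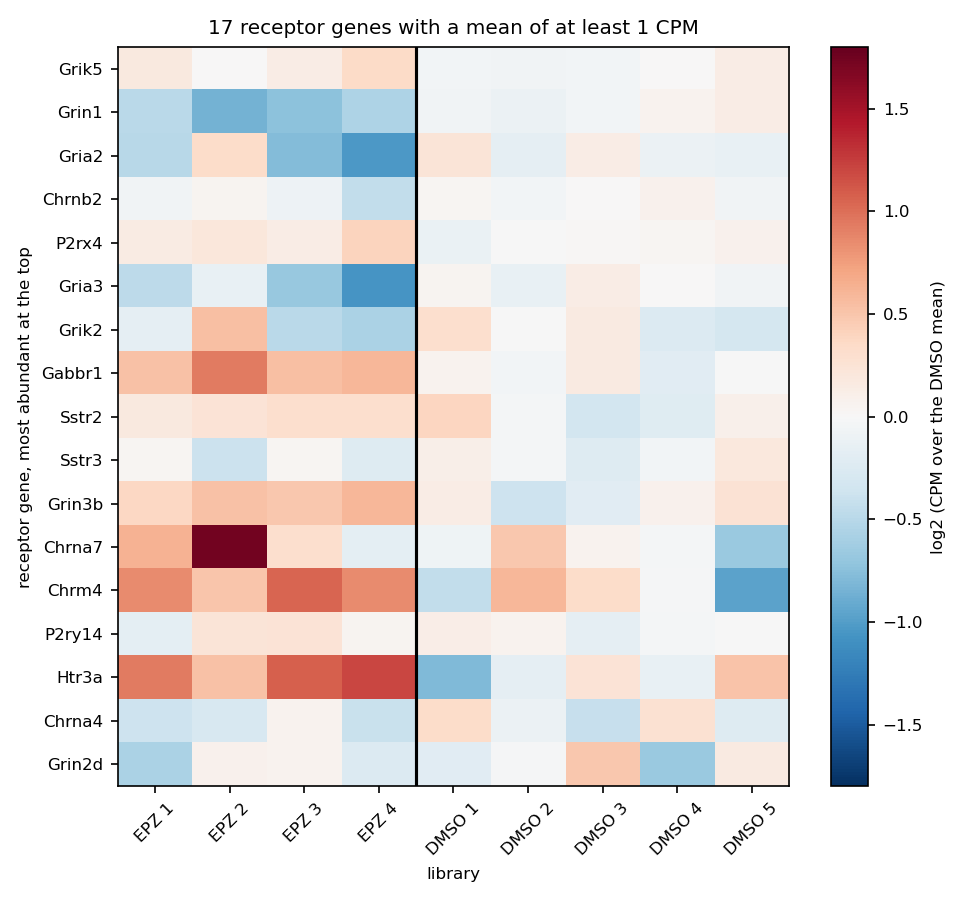
Each cell of the heat map gives the log2 ratio of a library's CPM over the DMSO mean for 17 receptor genes that averaged 1 CPM or more (rows, most abundant at the top), with the 4 EPZ011989 libraries left of the 5 DMSO libraries. Grin1 and Gria3 are blue in all 4 EPZ011989 libraries, and Gabbr1, Grin3b and Htr3a are red in all 4. P2rx4, Chrm4, Sstr2 and Grik5, not past the threshold, are also red in all 4, Grik5 only faintly in replicate 2. Gria2, Grik2 and Chrnb2 are red in replicate 2 and blue in the other 3.

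GABA-A receptors usually combine alpha and beta subunits with a gamma or delta subunit. Gabrd, the delta subunit of receptors outside synapses, was at 1.22, 1.49, 1.86 and 1.74 CPM with EPZ011989 and at 0.230, 0.0589, 0, 0.287 and 0.371 CPM in DMSO. All EPZ011989 libraries exceeded all DMSO libraries. Gabrd rose 8.33-fold (log2 fold change 3.05 ± 0.68 SE, adjusted p = 0.00759), a call that held in all 19 alternative settings. Gabrr2, a rho subunit gene, was at 0.628 ± 0.099 CPM with EPZ011989 and 0.292 ± 0.231 CPM in DMSO (adjusted p = 0.143).

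The metabotropic GABA-B receptor is a pair of proteins, with GABA bound by the product of Gabbr1 and G proteins engaged by that of Gabbr2. Gabbr1 (chromosome 17, 37045966 to 37075067) was at 13.3, 17.8, 13.5 and 14.05 CPM with EPZ011989 and at 9.73, 8.96, 10.4, 8.09 and 9.22 CPM in DMSO. The lowest EPZ011989 library exceeded the highest DMSO library. Gabbr1 rose 1.58-fold (log2 fold change 0.66 ± 0.11 SE, adjusted p = 0.00156), and the call held in all 19 alternative settings. Gabbr2 had a count of 0 in all 9 libraries. A count of 0 allows up to 0.158 to 0.203 CPM per library, at a floor of 12 counts (3 fragments at about 4 counts each), for counting error only. Glra2, a glycine receptor alpha subunit gene on chromosome X (165129017 to 165327393), was at 0.901, 0.690, 0.831 and 0.379 CPM with EPZ011989, and in DMSO at 0.192 CPM in replicate 2 and 0 in the other 4. At about 4 counts a fragment this is 52 fragments with EPZ011989 and 3 in DMSO, a ratio of 20.3 with a 95% counting interval of 6.56 to 101 (adjusted p = 0.0164). Without EPZ011989 replicate 1 it did not pass (0.0505). Glra1 and Glra3 were at 0 in every library.

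**Figure D4:**
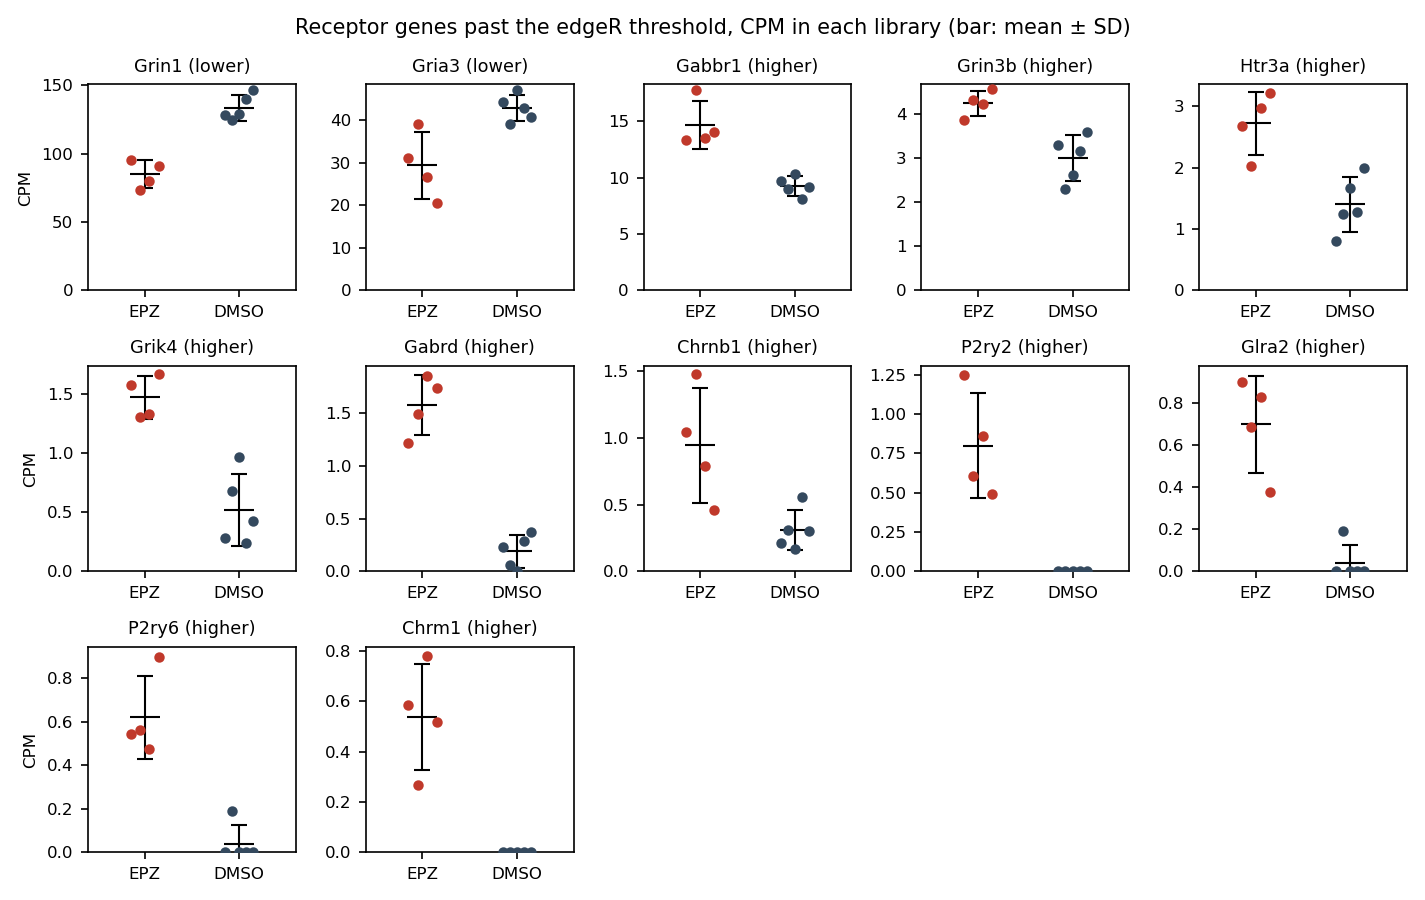
CPM in each library (y axis, linear from 0) is shown for 12 receptor genes past the threshold, EPZ011989 left and DMSO right, with the mean and SD as bars. The 2 genes that were lower stand first, and Gria3 and Chrnb1 are the genes whose groups overlap.

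Acetylcholine acts through nicotinic channels and muscarinic G protein-coupled receptors. Chrnb2, the main neuronal beta subunit gene, was at 44.6, 48.2, 43.9 and 34.3 CPM with EPZ011989 and 47.8, 44.8, 46.7, 48.9 and 44.6 CPM in DMSO (log2 fold change -0.12 ± 0.09 SE, adjusted p = 0.411). Its exons overlap those of Adar on the other strand, which was at 76.5 ± 5.5 CPM with EPZ011989 and 79.9 ± 3.4 CPM in DMSO. Its usual partner gene Chrna4 was much lower, at 1.37 ± 0.22 CPM with EPZ011989 and 1.61 ± 0.36 CPM in DMSO (adjusted p = 0.522). Chrna7, whose product forms channels by itself, was at 3.30, 7.14, 2.65 and 1.89 CPM with EPZ011989 and 2.04, 3.01, 2.24, 2.09 and 1.36 CPM in DMSO. Replicate 2 was by far the highest, and the difference did not pass (adjusted p = 0.138). Chrnb1, a subunit of the muscle-type receptor, was at 1.05, 1.48, 0.791 and 0.463 CPM with EPZ011989 and at 0.217, 0.309, 0.166, 0.557 and 0.300 CPM in DMSO. EPZ011989 replicate 4 fell within the DMSO range. Chrnb1 rose 3.05-fold (log2 fold change 1.61 ± 0.45 SE, adjusted p = 0.0235), but did not pass without EPZ011989 replicate 1 (0.0676) or 2 (0.0600) or DMSO replicate 1 (0.0541) or 3 (0.0520).

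Chrm4 encodes a muscarinic receptor that lowers cAMP, and Chrm1 one that activates phospholipase C. Chrm4 was at 3.58, 2.80, 4.08 and 3.55 CPM with EPZ011989 and at 1.45, 3.01, 2.48, 1.94 and 1.01 CPM in DMSO. The groups overlapped in EPZ011989 replicate 2, and the difference was just outside the threshold (log2 fold change 0.82 ± 0.28 SE, adjusted p = 0.0559). It passed without EPZ011989 replicate 2 (0.0329) or DMSO replicate 2 (0.0245), with DESeq2 (0.0300), limma-voom (0.0268), upper-quartile factors (0.0440), library size alone (0.0488) and counts divided by 4 (0.0469). Chrm1 (chromosome 19, 8663789 to 8683587) was counted in no DMSO library and was at 0.583, 0.267, 0.778 and 0.519 CPM with EPZ011989. Set against the floor in each DMSO library, the level was at least 3.05-fold higher (adjusted p = 0.000878).

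Htr3a encodes the core subunit of the serotonin-gated ion channel. Its level was 2.68, 2.03, 2.97 and 3.21 CPM with EPZ011989 and 0.812, 1.25, 1.66, 1.28 and 2.00 CPM in DMSO. The lowest EPZ011989 library lay just above the highest DMSO library. Htr3a rose 1.94-fold (log2 fold change 0.96 ± 0.26 SE, adjusted p = 0.0197), and was not called without EPZ011989 replicate 1 (0.0531), 3 (0.0578) or 4 (0.0539) or DMSO replicate 4 (0.0502). Htr3b, the partner subunit gene, was at 0 throughout. Htr2b averaged 0.206 ± 0.215 CPM with EPZ011989 and 0.161 ± 0.074 CPM in DMSO (adjusted p = 0.828). The exons of Htr2b overlap those of Psmd1 on the other strand, a gene at 420 ± 29 CPM with EPZ011989 and 425 ± 13 CPM in DMSO. Adra2a, the adrenergic receptor gene with the most counts, averaged 0.358 ± 0.137 CPM with EPZ011989 and 0.372 ± 0.186 CPM in DMSO (adjusted p = 0.958).

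Somatostatin receptors did not change past the threshold. Sstr2, the main somatostatin receptor of alpha cells, was at 5.33, 5.59, 5.80 and 5.80 CPM with EPZ011989 and 6.16, 4.61, 3.74, 4.05 and 5.04 CPM in DMSO. All 4 EPZ011989 libraries lay within the DMSO range (log2 fold change 0.25 ± 0.15 SE, adjusted p = 0.265). Sstr3 was at 3.99, 2.96, 3.97 and 3.31 CPM with EPZ011989 and 4.17, 3.79, 3.29, 3.75 and 4.41 CPM in DMSO (log2 fold change -0.13 ± 0.14 SE, adjusted p = 0.599). Sstr1 and Sstr4 had a count of 0 in every library. Sstr5 had 11, 10, 7 and 0 counts in EPZ011989 replicates 1 to 4 and 3 counts in DMSO replicate 4, all under the floor. Of the peptide ligand genes, Sst was at 0.866 ± 0.314 CPM with EPZ011989 and 0 in every DMSO library, and Cort at 0.926 ± 0.304 CPM with EPZ011989 and 0.529 ± 0.166 CPM in DMSO (adjusted p = 0.120). Sst passed the filter on low counts only through the EPZ011989 libraries, so its call is no separate support.

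Receptors for ATP and other nucleotides are the P2X channels and the G protein-coupled P2Y receptors. P2rx4 was at 43.8, 45.7, 43.3 and 52.1 CPM with EPZ011989 and between 36.4 and 41.6 CPM in the 5 DMSO libraries. Every EPZ011989 library exceeded every DMSO library, which held for 14.3% of all tested genes that averaged 1 CPM or more, and the 1.17-fold difference did not pass (log2 fold change 0.22 ± 0.08 SE, adjusted p = 0.0553). It passed without EPZ011989 replicate 2 (0.0451), with DESeq2 (0.0325), upper-quartile factors (0.0307) and library size alone (0.0173). P2rx2, P2rx3 and P2rx5 had means of 0.216 to 0.514 CPM with EPZ011989 and of 0.159 to 0.227 CPM in DMSO and did not pass. Exons of P2rx3 overlap those of the far more abundant Ssrp1 on the other strand.

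P2ry2 (chromosome 7, 100996568 to 101012866), a receptor for ATP and UTP, had no count in any DMSO library and was at 1.25, 0.605, 0.857 and 0.491 CPM with EPZ011989. This is at least 4.55-fold higher against the floor (adjusted p = 0.000448). P2ry6, a receptor for UDP, was at 0.543, 0.563, 0.475 and 0.898 CPM with EPZ011989, and in DMSO at 0.192 CPM in replicate 2 and 0 in the other 4. Its 45 fragments with EPZ011989 and 3 in DMSO gave a ratio of 17.5 with a 95% counting interval of 5.63 to 88.2 (adjusted p = 0.0200). P2ry14, a receptor for UDP-glucose, was the most abundant of the family at 2.12, 2.81, 2.85 and 2.47 CPM with EPZ011989 and 2.60, 2.49, 2.15, 2.35 and 2.39 CPM in DMSO (adjusted p = 0.706).

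Of the 5 genes that the name rule took without being receptors, Htra4 fell and the other 4 did not pass. Htra4 was at 1.02, 0.788, 1.23 and 1.56 CPM with EPZ011989 and between 1.63 and 2.50 CPM in the 5 DMSO libraries (log2 fold change -0.79 ± 0.24 SE, adjusted p = 0.0337). It was not called without EPZ011989 replicate 1 (0.0880) or 3 (0.0653), DMSO replicate 2 (0.0744), 3 (0.0518) or 4 (0.0798), or with upper-quartile factors (0.0501). Adrbk1 and Adrbk2, which phosphorylate active receptors, did not differ past the threshold, with Adrbk1 at 270 ± 26 CPM with EPZ011989 and 255 ± 15 CPM in DMSO and Adrbk2 at 51.4 ± 16.3 CPM with EPZ011989 and 42.2 ± 3.7 CPM in DMSO. Htra2 averaged 107 ± 17 CPM with EPZ011989 and 118 ± 5 CPM in DMSO, and Grina 223 ± 41 CPM with EPZ011989 and 217 ± 21 CPM in DMSO.

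A further 85 rows matched the name rule with under 100 counts. Of these, 35 had a count of 0 in all libraries, 26 had counts in EPZ011989 libraries only, 5 in DMSO libraries only and 19 in both. Low genes of the whole table leaned the same way: of 6589 with under 100 counts but at least 1, 2247 (34.1%) had counts in EPZ011989 libraries only, 824 (12.5%) in DMSO libraries only and 3518 (53.4%) in both. The difference between these tallies was not tested. No dopamine receptor gene and no metabotropic glutamate receptor gene reached the minimum. The dopamine receptor genes summed to 0.0530 to 0.171 CPM with EPZ011989 and to 0 in DMSO, and the metabotropic glutamate receptor genes to 0.0791 to 0.411 CPM with EPZ011989 and 0 to 0.152 CPM in DMSO. Htr2b, with 115 counts, lay just inside the minimum and Adra2b, an adrenergic receptor gene with 98 counts, just outside. Adra2b had 20, 40, 23 and 15 counts in the EPZ011989 libraries and 0 in every DMSO library. It was 1 of 4 such rows that passed the filter on low counts, and 2 of these 4 were called, Adra2b (adjusted p = 0.00194) and the protease gene Htra3 (0.0191). Both passed that filter only through the EPZ011989 libraries.

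Genes that serve these receptors were counted in lists set by function, each beside all tested genes, of which 16.2% were higher and 7.96% lower at a median log2 fold change of 0.03. No list was tested against other genes. Proteins that anchor, assemble or modify receptors were higher for 13 and lower for 1 of 37 tested genes, with a median log2 fold change of 0.24. Iqsec3, an exchange factor of inhibitory synapses, was at 22.2 ± 4.5 CPM with EPZ011989 and 0.723 ± 0.348 CPM in DMSO (adjusted p = 3.86e-06). Homer3, which tethers metabotropic glutamate receptors, was at 5.82 ± 0.99 CPM with EPZ011989 and 0.760 ± 0.189 CPM in DMSO (5.29e-06), and the presynaptic adhesion gene Nrxn2 at 125 ± 7 CPM with EPZ011989 and 71.5 ± 4.4 CPM in DMSO (1.43e-05). The exception was Lhfpl4, a GABA-A receptor auxiliary subunit, at 81.8 ± 1.4 CPM with EPZ011989 and 92.1 ± 3.4 CPM in DMSO (adjusted p = 0.0495).

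G protein subunits, receptor kinases, arrestins and RGS proteins, which shut off G protein signals, were higher for 16 and lower for 0 of 41 tested genes, with a median log2 fold change of 0.28 (all tested genes: 16.2% higher, 7.96% lower, median 0.03). The list holds Adrbk1 and Adrbk2. Rgs12 was at 30.5 ± 0.8 CPM with EPZ011989 and 12.99 ± 1.31 CPM in DMSO (adjusted p = 3.75e-06). Gng12, a G protein gamma subunit gene, was at 12.01 ± 0.79 CPM with EPZ011989 and 1.41 ± 0.46 CPM in DMSO (6.29e-06), and Rgs5 at 39.9 ± 8.9 CPM with EPZ011989 and 11.6 ± 1.1 CPM in DMSO (6.54e-06). Enzymes and transporters that make, degrade, load or take up transmitters were higher for 6 and lower for 2 of 26 tested, with a median log2 fold change of 0.07, near the shares and the median of all tested genes. The glutamate uptake transporter gene Slc1a1 was at 1.83 ± 0.51 CPM with EPZ011989 and at 0 in every DMSO library, and the vesicular glutamate transporter gene Slc17a7 at 2.15 ± 0.39 CPM with EPZ011989 and 0.0931 ± 0.103 CPM in DMSO. Both passed the filter on low counts only through the EPZ011989 libraries, so a call of either is no separate support. Lower were Slc6a9, a glycine transporter gene (9.28 ± 2.93 CPM with EPZ011989 and 17.3 ± 0.7 CPM in DMSO, adjusted p = 0.00306), and Maob, which breaks down monoamines (123 ± 2 CPM with EPZ011989 and 155 ± 5 CPM in DMSO, adjusted p = 0.000913).

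The number of the 40 genes called depended on single libraries. Without EPZ011989 replicate 1, 5 were higher and 2 lower, and without EPZ011989 replicate 3, 8 were higher and 1 lower. Without EPZ011989 replicates 2 and 4 together, 6 were higher and 4 lower. Genes no longer called there included Chrnb1 (adjusted p = 0.0543), Grik4 (0.0538), Grin3b (0.133) and P2ry6 (0.0789), while Gria2 passed as lower (0.00350). Grin1, Gabbr1, Gabrd, P2ry2 and Chrm1 kept their calls in every alternative that tested them, 19 each for the first 3 and 17 each for P2ry2 and Chrm1. Gabrd, P2ry2 and Chrm1 were members only through the EPZ011989 libraries, so their kept calls are no added support. The filter of 1 CPM in 4 libraries and counts divided by 4 dropped P2ry2 and Chrm1 before testing.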

How the data were processed

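Libraries were built from mRNA enriched by its poly-A tail, per the labels' protocols. HISAT2, StringTie and DESeq2 are named with the build mm10 in the submitters' processing notes, with no role or version for each. The authors deposited whole-number gene counts for 33212 genes, used here. A deposited normalized table was not used. Counts of 4 (3046 values) and 5 (2732) were more frequent than 2 (2108) or 3 (2160), so many fragments appear to add about 4 counts, and counts are not independent reads. No pair of libraries looked like a duplicate: the smallest chi-square within a group, over its degrees of freedom and with counts divided by 4, was 3.88.

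The test was the quasi-likelihood F test in edgeR 4.0.16 under R 4.3.3, two-sided, with treatment as the only term, all 9 libraries, a robust fit, TMM scaling and the filterByExpr filter. Adjusted p-values are by Benjamini-Hochberg over 14754 genes, and a call needs one below 0.05. The SE was taken as |log2 fold change| over √F, and folds are ratios of mean CPM. The fit was tested on counts simulated from its own dispersions, with changes planted only in genes of at least 1 CPM in DMSO. It recovered 89% of 100 2-fold and 99% of 100 4-fold changes, with 8 false calls. This simulation does not cover changes of genes near 0 in DMSO, or counts that step by about 4. Positions, exon lengths and overlaps come from GENCODE M21 on GRCm38, the assembly of mm10. Named were all called members, the member with the most CPM per family and all somatostatin receptors that reached the minimum, and the 3 called genes of smallest p per context list. Members and lists were chosen with earlier results of these data known. Some results are not reported here. Genes named outside this rule were chosen after their values were seen. Alternatives were 3 other scalings (upper-quartile, RLE, library size alone), 2 other filters, DESeq2 1.42.0, limma-voom (limma 3.58.1), counts divided by 4, a replicate block and left-out libraries. Floors and intervals cover counting error only.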

Additional observations from a re-analysis of the deposited data

Results flagged for a closer look

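For 22 named genes, each group with any spread (42 in all) was searched for a library far from the others by Dixon's ratio, the gap to the nearest library divided by the group's range. For normally distributed values chance alone gives about 1 in 20 such groups, and 3 were found. Gabbr1 was at 17.8 CPM in EPZ011989 replicate 2, while the other EPZ011989 libraries were at 13.3 to 14.05 CPM (ratio 0.837). Without that library Gabbr1 was still higher (log2 fold change 0.55, adjusted p = 0.00156). In DMSO, replicate 2 alone had counts of P2ry6 and of Glra2, 0.192 CPM each and 0 in the other 4 libraries (ratio 1 in both). With 4 libraries at 0 the ratio can only be 1, so the rate of 1 in 20 does not apply to these groups.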

How the results depend on the processing

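Among 13 called named genes all kept their direction in each of the up to 19 alternatives that tested them, and 5 kept their call in all. Of these 5, P2ry2 and Chrm1 were counted in no DMSO library, so for them a kept call is no added support. The same holds for Gabrd, which had 64 counts over the DMSO libraries and was a member only through EPZ011989. Of the 40 members, 11 were higher and 3 lower. The higher count was 5 with at least 1 CPM in 4 libraries and 7 with counts divided by 4, where fewer genes were tested, 6 without EPZ011989 replicates 2 and 4, and 5 to 12 with 1 library left out (lower 1 to 4). For all genes, 2388 were higher and 1174 lower. Lower genes numbered 776 with upper-quartile factors (2735 higher), and 781 to 2377 with 1 library left out (higher 1861 to 2939). The cause was not tested. In the anchoring list, 0 were lower with library size alone, upper-quartile factors, the 1 CPM filter and no filter, 2 with DESeq2, and 0 to 3 with 1 library left out (higher 10 to 16). In the G protein list, 1 was lower with DESeq2 and 1 without EPZ011989 replicates 2 and 4, and 0 to 2 with 1 library left out (higher 11 to 20). In the transmitter list 2 to 3 were lower and 6 to 7 higher with 1 library left out. Of the ligand genes, 0 were higher with 1 CPM in 4 libraries or counts divided by 4. Values that turned sign were all of genes not called: Adra2a with limma-voom (0.0497) and without EPZ011989 replicates 2 and 4 (0.27), with a range of -0.30 to 0.15 with 1 library left out, and Sstr3 without EPZ011989 replicates 2 and 4 (0.0347). These are log2 fold changes. Genes under 1 CPM rest on few fragments.

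Replicate numbers are shared by both groups, but same-numbered libraries did not deviate together (correlations of -0.206 to 0.0825). Of these 8 libraries, 1 correlated best with its own number, so no pairing by number was seen. The labels do not say whether same-numbered libraries shared a culture or batch, and so few libraries cannot settle it. With the replicate block, 1525 genes were higher and 527 lower, 5 members were higher and 1 lower, and Adra2a turned sign (0.21). Named genes that lost their call with the block were Chrnb1, Glra2, Gria3, Grik4, Grin3b, Htra4 and P2ry6.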

Other observations

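P2ry6 and P2ry2, both higher with EPZ011989, lie next to each other on chromosome 7, with 21.9 kb between them (GRCm38). Protein-coding genes within 100 kb of the pair were all expressed in both groups. Of these, Relt, a receptor of the TNF receptor family, rose (20.6 ± 1.3 CPM with EPZ011989 and 16.04 ± 1.23 CPM in DMSO, log2 fold change 0.36, adjusted p = 0.00903). Arhgef17 (122 ± 7 CPM with EPZ011989 and 112 ± 3 CPM in DMSO, adjusted p = 0.169), Fam168a (93.7 ± 12.97 CPM with EPZ011989 and 82.6 ± 8.0 CPM in DMSO, 0.249) and Fchsd2 (20.05 ± 2.25 CPM with EPZ011989 and 19.3 ± 1.5 CPM in DMSO, 0.755) did not pass. The pair was chosen after its values were seen.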
